A study of Homo sapiens with 4 samples.

Results

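Myosin chains and their binding proteins build the thick filament of striated muscle, and 10 of their genes were examined in the cell line RD, which was derived from a fusion-negative rhabdomyosarcoma (FN-RMS), a tumor with muscle features. The 10 genes were 3 heavy chains (MYH3, MYH7 and MYH8), 4 light chains (MYL1, MYL4, MYL6B and MYL11, also called MYLPF) and 3 binding proteins (MYBPC1, MYBPC2 and MYBPH). They were taken by name out of 20007 protein-coding genes, with earlier results of these data known, and all 10 were matched in GENCODE. For each gene, every called peak that overlapped the gene body or the 10 kb on either side was collected. That stretch is called the domain of the gene.

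Chromatin immunoprecipitation followed by sequencing (ChIP-seq) had been performed for MYOD, the bHLH transcription factor that drives muscle differentiation, and for H3K27ac, a histone acetylation found at active promoters and enhancers. Both antibodies were used on cells infected with a lentiviral control short hairpin (shSCR, genotype WT in the labels) and on cells infected with a hairpin against SKP2 (shSKP2, genotype SKP2 knockdown). SKP2 is the F-box subunit that selects substrates for an SCF ubiquitin ligase. The study used the shSKP2.2 vector, a single hairpin, for ChIP-seq. Per the methods both arms were fixed, digested with micrococcal nuclease and mixed with Drosophila chromatin as spike-in. All 4 libraries came from cells of the same line in growth medium, so the comparison asked how MYOD and H3K27ac lay at the thick-filament genes with and without the hairpin to SKP2. There was 1 library per group, so no test between groups was possible, and peak lists hold no measure of SKP2 itself.

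The lists held 25356 (shSCR) and 38457 (shSKP2) H3K27ac peaks and 5814 and 8457 MYOD peaks. Median widths were 363 and 487 bp for H3K27ac, and 271 and 280 bp for MYOD. The lowest local background in a list, a proxy for depth because total reads are not in the lists, was 1.75 and 1.61 fragments for H3K27ac and 1.48 and 1.94 for MYOD. Of 6 myogenic marker genes, 4 had an H3K27ac peak in shSCR and 5 in shSKP2, while DES, the muscle intermediate filament gene, had none. A MYOD peak lay at 5 of the 6 in both arms, against 21.9% (shSCR) and 30.6% (shSKP2) of all domains. The 4 blood and endothelial and the 4 epithelial markers had no MYOD peak in either list, although 3 of each had an H3K27ac peak in both arms. Cardiac markers with an H3K27ac peak numbered 3 of 4 in shSCR and 1 of 4 in shSKP2, and smooth-muscle markers 2 of 4 in both. A MYOD peak lay at 1 of 4 cardiac markers in both arms, and at 0 and 1 of 4 smooth-muscle markers. Only 5851 of 20007 domains had no H3K27ac peak in either arm, so such peaks were common over all genes. In bulk chromatin, more cells with a peak and more signal per cell cannot be told apart.

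Myosin of striated muscle is a hexamer of 2 heavy chains, each carrying an essential and a regulatory light chain. The heavy chain holds the motor that pulls on actin, and the light chains stiffen its neck and tune it. Several heavy and light chains exist as embryonic, perinatal, slow and fast forms that replace each other as fibers mature, and the binding proteins sit along the filament and set how readily motors engage. MYOD and the related myogenic factors bind E-boxes, the CANNTG hexamers, most often with GC or with CC or GG at the centre (CAGCTG and CAGGTG, the latter read as CACCTG on the other strand).

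The sequences at MYOD summits are shown first because 8 of the 10 domains held a MYOD peak in shSKP2 cells. Each is given on the plus strand of hg38, with the hexamer CAGCTG in capitals, and likewise CAGGTG with its reverse CACCTG. The first group holds sites called in both arms: MYBPH intron 3 (chr1:203173619-203173819), MYL1 intron 1 (chr2:210309900-210310100), MYH7 upstream (chr14:23438695-23438895), MYH8 downstream (chr17:10384330-10384530) and the stretch before the MYBPC2 transcription start site (TSS), where the summit lies 12 bp from the TSS (chr19:50432692-50432891).
MYBPH intron 3: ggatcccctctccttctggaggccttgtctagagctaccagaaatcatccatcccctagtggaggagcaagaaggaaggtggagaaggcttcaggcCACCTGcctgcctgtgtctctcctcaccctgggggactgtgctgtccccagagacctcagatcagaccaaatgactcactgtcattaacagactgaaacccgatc
MYL1 intron 1: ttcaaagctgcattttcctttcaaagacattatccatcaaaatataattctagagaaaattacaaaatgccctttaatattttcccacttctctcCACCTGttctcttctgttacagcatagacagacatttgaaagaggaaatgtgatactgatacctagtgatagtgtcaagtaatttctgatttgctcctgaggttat
MYH7 upstream: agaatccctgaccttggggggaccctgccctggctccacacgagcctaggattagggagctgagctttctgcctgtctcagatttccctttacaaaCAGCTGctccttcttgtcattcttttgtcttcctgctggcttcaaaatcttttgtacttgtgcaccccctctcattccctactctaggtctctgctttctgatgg
MYH8 downstream: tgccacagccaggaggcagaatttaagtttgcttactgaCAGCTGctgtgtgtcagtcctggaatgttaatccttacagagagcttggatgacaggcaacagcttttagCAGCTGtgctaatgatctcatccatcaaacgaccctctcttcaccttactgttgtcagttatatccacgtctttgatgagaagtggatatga
MYBPC2 TSS: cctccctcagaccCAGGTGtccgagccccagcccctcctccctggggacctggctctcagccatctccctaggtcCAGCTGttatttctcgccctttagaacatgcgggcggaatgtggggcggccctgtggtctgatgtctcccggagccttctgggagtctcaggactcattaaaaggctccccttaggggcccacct

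The second group holds a part of the 6 sites called in the shSKP2 list alone, for the embryonic heavy chain, a light chain beyond its 3′ end and the fast regulatory light chain: MYH3 upstream (chr17:10657995-10658195), MYL1 downstream (chr2:210288414-210288614) and MYL11 inside the annotated gene and before its canonical TSS (chr16:30371121-30371321). The sites of that list alone at MYL6B, MYBPC2 and MYBPH are not printed. Of these, only the MYBPH site has CAGCTG within 100 bp of its summit.
MYH3 upstream: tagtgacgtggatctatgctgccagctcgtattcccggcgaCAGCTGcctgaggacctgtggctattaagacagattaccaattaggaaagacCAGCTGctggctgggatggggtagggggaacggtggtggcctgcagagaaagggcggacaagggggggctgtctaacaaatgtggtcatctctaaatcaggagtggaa
MYL1 downstream: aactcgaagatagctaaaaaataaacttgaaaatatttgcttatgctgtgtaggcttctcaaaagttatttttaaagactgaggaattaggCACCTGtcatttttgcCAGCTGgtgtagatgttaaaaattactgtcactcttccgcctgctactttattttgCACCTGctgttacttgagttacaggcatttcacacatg
MYL11 upstream: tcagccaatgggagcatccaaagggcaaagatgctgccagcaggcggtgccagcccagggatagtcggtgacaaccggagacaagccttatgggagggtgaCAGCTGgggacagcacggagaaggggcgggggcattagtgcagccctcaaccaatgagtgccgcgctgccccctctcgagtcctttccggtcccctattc

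A capitalised hexamer lay close to most summits. Its centre was 4 bp from the summit at MYH3, 1 bp at MYH7, 12 bp at MYH8, 6 bp at the downstream MYL1 site, 2 bp in MYL1 intron 1, 4 bp at MYL11 and 1 bp at the kept MYBPH site. It was 10 and 35 bp at the MYBPC2 sites and 74 bp at MYL6B. The printed MYBPC2 TSS stretch is not centred on the summit and ends inside the hexamer 10 bp away, which is therefore not capitalised. The hexamers capitalised there lie outside the 100 bp searched around that summit. The hexamer nearest the summit was CAGCTG at all 3 heavy chains and at MYL11. It was CACCTG at both MYL1 sites, both MYBPC2 sites, MYL6B and the kept MYBPH site, and CAGGTG, exactly at the summit, at the second MYBPH site. Searched on both strands within 100 bp of the summit, CAGCTG was found at 6 of the 11 MYOD sites of these domains and CAGGTG or CACCTG at 7 of 11. Over all MYOD peaks the shares were 64.3% (shSCR) and 60.7% (shSKP2) for CAGCTG, and 41.7% and 45.1% for CAGGTG or CACCTG. Any CANNTG, which includes the others, was present at 11 of 11 sites, against 94.9% and 93.5% of all peaks. The MEF2 motif, bound by a family of MYOD partners, was found at 1 of the 11, the downstream MYL1 site, against 1.98% and 1.96% of all peaks. These matches describe the letters in the windows only.

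In the domains of the myosin genes, H3K27ac covered more sequence in shSKP2 than in shSCR cells at 7 of 10 genes and less at 2, while MYBPC1 had no peak in any list. Over all protein-coding domains the share with more H3K27ac cover in shSKP2 was 66.8% and the share with less was 3.92%, so a count of 7 of 10 was near the background. Cover was at least 2-fold higher in shSKP2, absence in shSCR included, at 5 genes (MYH3, MYH8, MYL1, MYL11 and MYBPH), against 35.9% of all domains. Of these, MYH3 and MYBPH had an H3K27ac peak in shSKP2 and none in shSCR, as did 10.6% of all domains. Cover summed over the 10 genes went from 7.0 kb to 16.2 kb, a ratio of 2.31, beside a ratio of 2.05 for the whole H3K27ac lists. The median difference was 0.514 kb for the myosin genes and 0.4 kb for all genes. Per kb of domain the median cover of the myosin genes went from 14.8 to 43.1 bp, against 5.26 to 14.1 bp over all genes.

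**Figure D1:**
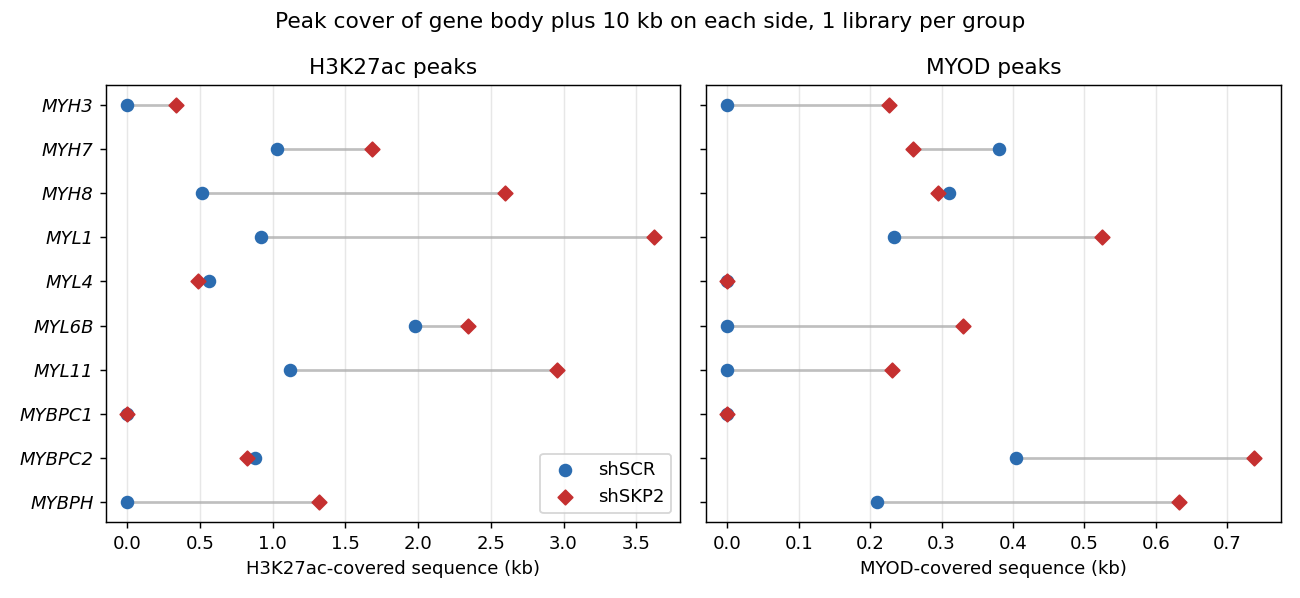
Sequence covered by H3K27ac (left) and MYOD (right) peaks in the domain of each of the 10 genes, in kb, with circles for shSCR and diamonds for shSKP2, 1 library each. H3K27ac cover was highest at MYL1 in shSKP2 (3.62 kb) and 0 in all lists at MYBPC1, and MYH7 and MYH8 had slightly less MYOD cover in shSKP2.

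MYOD peaks were found in 5 of the 10 domains in shSCR and in 8 of 10 in shSKP2, against 21.9% and 30.6% of all domains. The genes were chosen with earlier results of these data known, so such shares describe the set and do not test it. The paper shows MYL1 and MYBPH among its example loci for MYOD and H3K27ac in RD cells. A MYOD site in the shSKP2 list alone lay in 6 of the 10 domains (20.1% of all domains) and a site in the shSCR list alone in 0 of 10 (8.92%). Such sites numbered 6 in all. With only peaks of a −log10 p of 10 or more the count was 2. That count included MYL1 intron 1, a site of both full lists whose shSCR peak (−log10 p of 7.5) fell out. By the same count over the full peak lists, a site in the shSKP2 list alone lay in 6 of 9 domains of nonmuscle and smooth-muscle myosin genes and in 5 of 12 of troponins and tropomyosins. MYL6, in the former set, shares its MYOD site with MYL6B. The count was 3 of 13 for other light chains, kinases and binding proteins, 0 of 7 for other heavy chains and 4 of 13 for actins, titin and Z-disc genes. A site in the shSCR list alone lay in 3 of 9, 4 of 12, 2 of 13, 0 of 7 and 5 of 13, in the same order. Across the 10 genes MYOD-covered sequence went from 1.54 to 3.24 kb, a ratio of 2.11, beside 1.52 for the whole lists. Of the 8 domains with a MYOD peak in shSKP2, 7 had more H3K27ac cover in shSKP2 and 5 had at least 2-fold more. Among all domains with such a peak the shares were 89.8% and 46.2%. MYBPC2 was the exception among the 8, with a difference of −60 bp that turned to 821 bp among peaks of a −log10 p of 10 or more, since its shSCR peak had a −log10 p of 9.45. With 50 kb flanks the MYBPC2 difference was 2398 bp. MYL4 and MYBPC1 had no MYOD peak in either list.

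**Figure D2:**
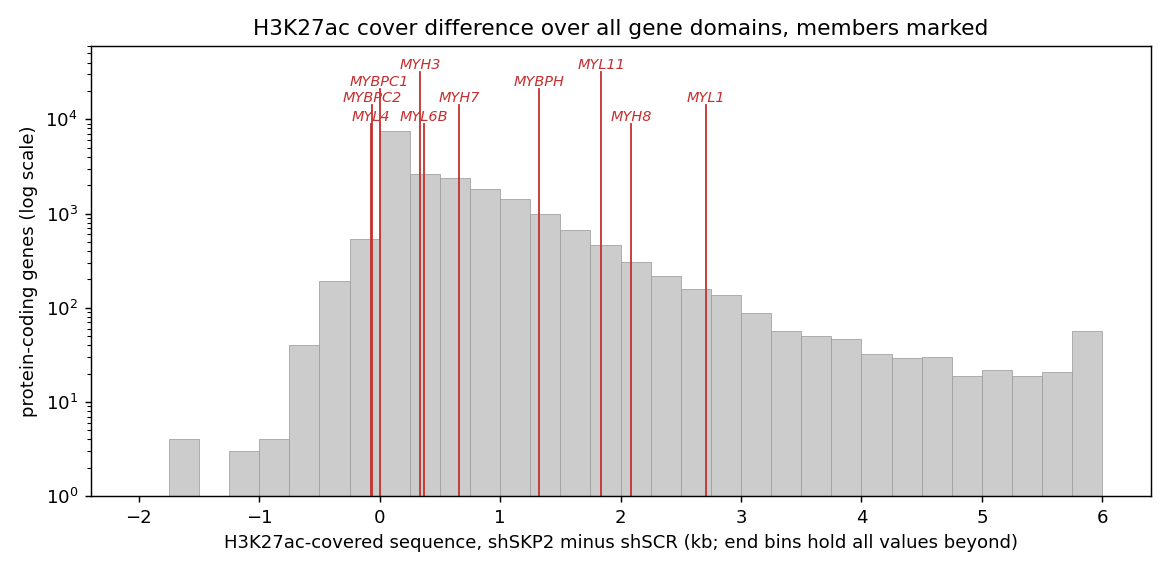
Number of protein-coding genes (y, log scale) by the difference in H3K27ac-covered sequence, shSKP2 minus shSCR (x, kb), with the 10 genes marked by red lines. MYL1, MYH8 and MYL11 lay furthest to the right, at 2.71, 2.09 and 1.84 kb, and MYL4 and MYBPC2 lay just under 0.

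The myosin genes spread widely within this distribution. A smaller difference than that of MYL1 was seen at 96.9% of all genes, and the same share was 94.1% for MYH8, 92.1% for MYL11 and 84.3% for MYBPH. MYH7 (62.4%), MYL6B (48.2%) and MYH3 (46.7%) lay in the middle of all genes. MYBPC2 (2.93%) and MYL4 (2.77%) lay at the low end. MYBPC1 (3.92%) had a difference of 0 and was tied with all genes without a difference, 5856 of 20007. With only peaks nearest the canonical TSS of the gene itself the difference was 954 bp at MYH8, against 2086 bp, and 731 bp at MYL11, against 1836 bp. At MYL11 this left out peaks near other RefSeq starts of that gene. At MYH8 no H3K27ac peak lay in the gene body in either arm. At MYBPH the difference was 677 bp, against 1316 bp, with peaks of a −log10 p of 10 or more or with lists of equal length.

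Among the heavy chains, MYH3 (ENSG00000109063.15), the embryonic form, lies on the minus strand of chromosome 17 (10628526 to 10657309). Its H3K27ac cover was 0 bp in shSCR and 338 bp in shSKP2, and its MYOD cover was 0 and 226 bp. Both peaks were at shSKP2 alone and they lay at opposite ends of the gene. The MYOD peak (10658026 to 10658251) had its summit 786 bp before the TSS, with a pileup of 11 fragments (95% Poisson interval 5.49 to 19.7) over a background of 2.06, the lowest pileup of any peak in the 10 domains. The single H3K27ac peak (10624198 to 10624535) lay beyond the 3′ end, 32.9 kb from the TSS, at 4.74-fold over background, where fold is the summit pileup over the local background, each with 1 added. No H3K27ac peak was called near the MYH3 TSS or its MYOD site in either arm.

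MYH8 (ENSG00000133020.4), the perinatal heavy chain, lies in the same cluster (minus strand, 10390322 to 10421950). Its H3K27ac cover was 512 bp in shSCR and 2598 bp in shSKP2, in 1 and 6 peaks, of which the outermost downstream peak was counted only up to the domain edge. In shSKP2, 4 of the 6 peaks lay downstream of the gene and 2 upstream, with summits 7.31 and 8.15 kb before the TSS. The upstream summits had pileups of 34 (23.5 to 47.5) and 20 (12.2 to 30.9) over backgrounds of 5.44 and 5.47, and no peak was called there in shSCR. The downstream group lay around a MYOD site 37.5 kb from the TSS that was called in both arms (10384283 to 10384577 in shSKP2). Summits of the 2 H3K27ac peaks next to that site lay in MYHAS, a long noncoding RNA gene of the cluster, and the nearest protein-coding TSS was that of MYH13.

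MYOD pileups at this MYH8 downstream site were close in both arms. Its pileup was 47 fragments in shSCR and 49 in shSKP2, a ratio of 1.04 (95% exact interval 0.684 to 1.59), with backgrounds of 4.9 and 4.4. Pileups are not scaled for depth, so a ratio of 1 does not stand for equal occupancy. The adjoining H3K27ac peak was also kept, and its pileup went from 33 to 62, a ratio of 1.88 (1.21 to 2.96). Its background went from 8.83 to 17.3, so the fold was 3.46 in shSCR and 3.44 in shSKP2. The higher pileup at this peak came with a likewise higher local background, whose part in the result was not tested. On the other flank of the MYOD summit a peak of 2.83-fold (10383720 to 10384236, pileup 53, background 18.1) was called in shSKP2 alone.

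MYH7 (ENSG00000092054.13), the slow and beta-cardiac heavy chain, lies on chromosome 14 (minus strand, 23412740 to 23435660). All of its peaks lay upstream, with summits between 2.9 and 3.39 kb before the TSS. H3K27ac cover was 1027 bp in shSCR, in 2 peaks, and 1685 bp in shSKP2, in 1 peak that spanned both (23437737 to 23439421). The MYOD summit lay in the gap between the 2 peaks in shSCR and inside the single peak in shSKP2. MYOD cover was 380 bp in shSCR and 260 bp in shSKP2, and the MYOD pileup was 28 and 29 fragments, a ratio of 1.04 (0.595 to 1.81). The H3K27ac pileup went from 35 to 56, a ratio of 1.6 (1.03 to 2.52), and the fold from 5.31 to 6.34.

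The heavy-chain cluster on chromosome 17, which holds 6 genes over 356 kb (10300865 to 10657309), was counted with 10 kb on each side. It had 2 H3K27ac peaks in shSCR and 12 in shSKP2, and 2 and 4 MYOD peaks. Outside the MYH3 and MYH8 domains the cluster held 1 H3K27ac peak in shSCR and 5 in shSKP2, and 1 and 2 MYOD peaks. Of the 7 other striated-muscle heavy chains, 2 had more H3K27ac cover in shSKP2 and none had less, and no MYOD peak lay in their domains. They were MYH13, the extraocular form, with 0 and 635 bp that came from the peaks downstream of MYH8, and MYH7B, a slow form, with 826 and 1340 bp. The domains of MYH1, MYH2, MYH4, MYH6 and MYH15 had no H3K27ac peak.

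**Figure D3:**
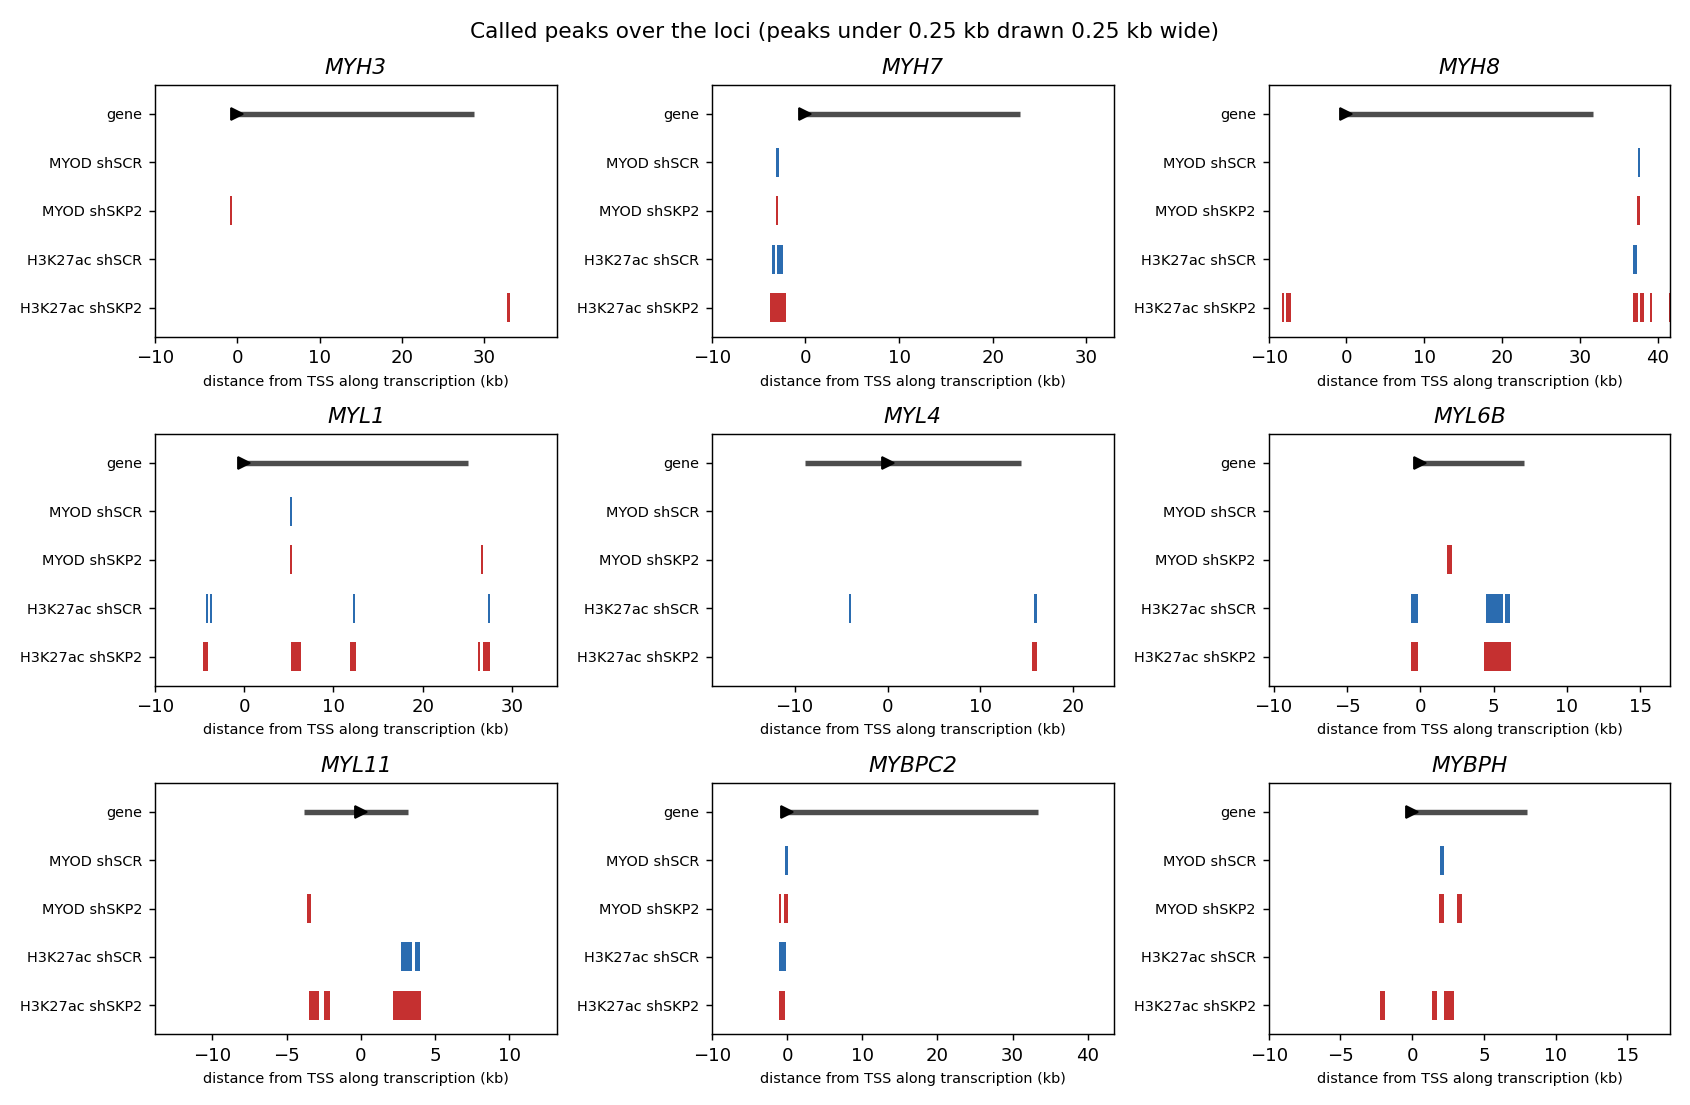
Called peaks in the 9 domains that held any, against distance from the TSS in the direction of transcription (kb), with the gene as a grey line and an arrowhead at the TSS of the canonical transcript, blue for shSCR and red for shSKP2. MYH8 has peaks at both ends, MYBPH has 3 H3K27ac peaks in shSKP2 alone, MYL4 has 1 H3K27ac peak in shSCR alone, and MYBPC2 a second MYOD peak in shSKP2 alone.

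Among the light chains, MYL1 (ENSG00000168530.16), the fast essential light chain, had the largest difference. It lies on chromosome 2 (minus strand, 210290150 to 210315174), and its H3K27ac cover was 916 bp in shSCR and 3623 bp in shSKP2, with 4 and 5 peaks. Its 3 kept peaks were wider in shSKP2. The peak beyond the 3′ end (210287623 to 210288430 in shSKP2) was 239 bp wide in shSCR and 808 bp in shSKP2. Its pileup went from 19 to 61 fragments, a ratio of 3.21 (1.89 to 5.69), which was the highest ratio among the kept peaks of these genes, and its background from 3.36 to 8.71. The summit was at 210287758 in shSCR and at 210288181 in shSKP2, outside the shSCR peak, so this ratio compares different positions. In intron 1, 12.4 kb from the canonical TSS, the pileup went from 19 to 40 (ratio 2.11, 1.19 to 3.85) and the fold from 3.84 to 4.71. RefSeq lists a second MYL1 start 11559 bp after the canonical TSS, so this peak lay near an alternative start. Before the TSS (210319199 to 210319785) the pileup was 23 and 35 (ratio 1.52, 0.874 to 2.7), while the fold was 3.62 in shSCR and 3.24 in shSKP2.

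MYOD was called at a pair of sites at MYL1. The intron 1 site 5.17 kb from the TSS was called in both arms, with 16 fragments in shSCR and 27 in shSKP2, a ratio of 1.69 (0.877 to 3.35). The only H3K27ac peak within 1 kb of it was a 1208 bp peak called in shSKP2 alone (210308766 to 210309973), at 5.25-fold. The downstream site, 26.7 kb from the TSS, was called in shSKP2 alone with 38 fragments (26.9 to 52.2) over a background of 4.43, the highest pileup among the 6 such sites. H3K27ac peaks flanked it on both sides in shSKP2 and on 1 side in shSCR. The peak that shSCR alone had in this domain lay 3.7 kb before the TSS, with a pileup of 32 fragments over a background of 5.65.

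MYL11 (ENSG00000180209.12), the fast regulatory light chain, lies on chromosome 16 (plus strand, 30370934 to 30377991). Its H3K27ac cover was 1121 bp in shSCR and 2957 bp in shSKP2. At the 3′ end 2 shSCR peaks became 1 peak of 1852 bp (30376963 to 30378814). Its pileup went from 83 to 112, a ratio of 1.35 (1.01 to 1.81), and its fold was 10.4 in shSCR and 10.1 in shSKP2, the highest H3K27ac folds of the 10 domains. This peak reaches into ZNF48 and SEPTIN1, whose bodies hold the summit of the second shSCR peak. The other H3K27ac peaks and the MYOD peak were called in shSKP2 alone and lay before the canonical TSS but inside the annotated gene. RefSeq also lists MYL11 starts 3868 and 2508 bp before the canonical TSS, so these peaks lay near starts of MYL11 itself. The MYOD summit was 3.58 kb before the canonical TSS, with 20 fragments (12.2 to 30.9) over 3.42. Among canonical starts the nearest to it was that of TBC1D10B, at 727 bp, but the first RefSeq start of MYL11 was nearer. The H3K27ac peak beside it (30371278 to 30372001) was called at 5.53-fold with 51 fragments over 8.41.

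MYL6B (ENSG00000196465.11), an essential light chain of slow muscle and nonmuscle cells, had the most H3K27ac cover of the 10 genes in shSCR, 1976 bp, and 2345 bp in shSKP2. It lies on chromosome 12 (plus strand, 56152256 to 56159647) directly before MYL6, the nonmuscle essential light chain. The peak before the TSS was kept at 489 and 497 bp, with pileups of 41 and 57 (ratio 1.39, 0.914 to 2.13). The peak at the 3′ end (56156910 to 56158757 in shSKP2) lay nearest the TSS of MYL6, with pileups of 56 and 65 (ratio 1.16, 0.799 to 1.69). Left to peaks whose nearest TSS is that of MYL6B, the difference in cover was 8 bp. A MYOD peak in intron 2 was called in shSKP2 alone, with 19 fragments (11.4 to 29.7) over 3.29, and no H3K27ac peak lay within 1 kb of its summit.

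MYL4 (ENSG00000198336.9), the embryonic and atrial essential light chain, had no MYOD peak. It lies on chromosome 17 (plus strand, 47200446 to 47223679), and its H3K27ac cover was 564 bp in shSCR and 489 bp in shSKP2. The peak 15.7 kb from the TSS, beyond the 3′ end, was kept with 16 and 14 fragments (ratio 0.875, 0.396 to 1.91). A peak 4.05 kb before the canonical TSS, inside the annotated gene, was called in shSCR alone with 20 fragments over 3.7. At this depth a difference between arms was not detectable at the kept peak.

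**Figure D4:**
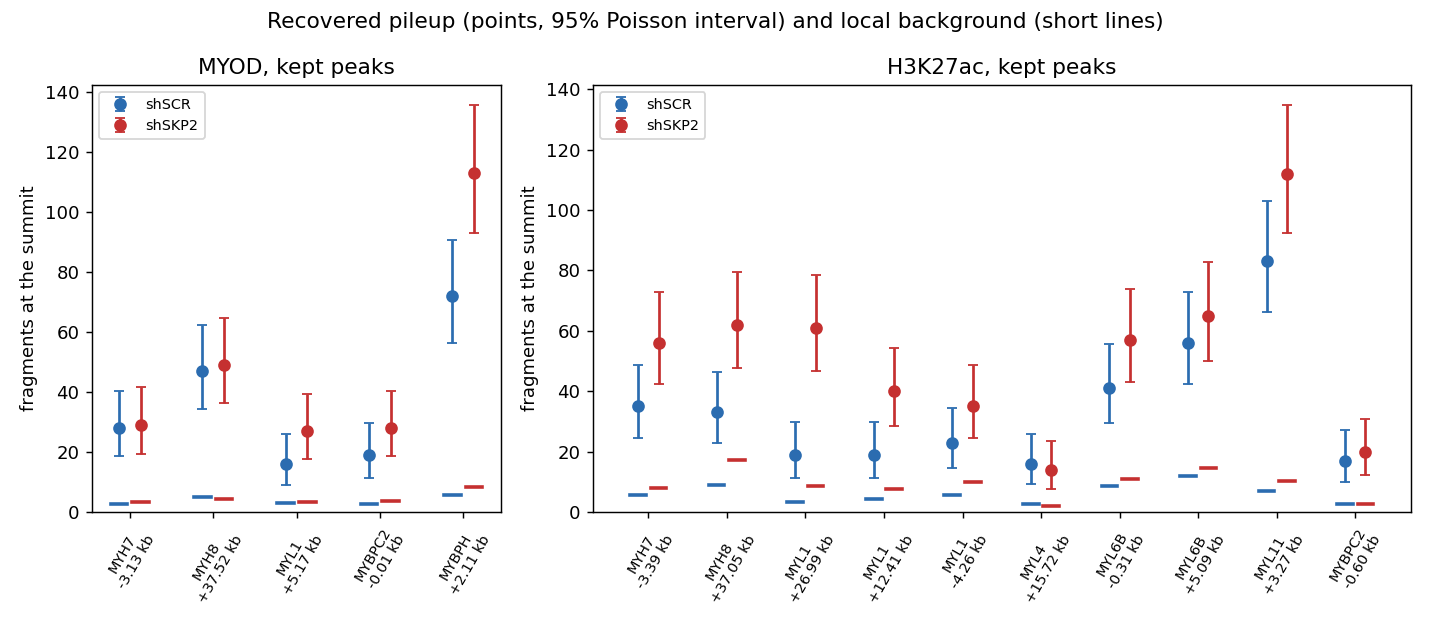
Fragments at the summit (points, with 95% Poisson intervals that cover counting error only) and local background (short lines) for the 5 MYOD and 10 H3K27ac peaks called in both arms, blue for shSCR and red for shSKP2, labelled with gene and distance of the shSKP2 summit from the TSS. H3K27ac pileup was higher in shSKP2 at 9 of 10 peaks, with the background higher at 9 of 10, and MYOD pileup was higher at 5 of 5. The shares over all kept pairs were 85.7%, 79.4% and 66.6%. Pileups are not scaled for depth, and the MYOD ratio was 1.04 at both MYH7 and MYH8.

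Among the binding proteins, MYBPH (ENSG00000133055.10), a shorter relative of the C proteins, went from no H3K27ac peak to 3. It lies on chromosome 1 (minus strand, 203167811 to 203175826), and H3K27ac cover was 0 bp in shSCR and 1316 bp in shSKP2. The 3 peaks had pileups of 40, 27 and 30 over backgrounds of 9.16, 9.44 and 8.6, which gave folds of 4.04, 2.68 and 3.23. MYOD was already at intron 3 in shSCR, with 72 fragments over 5.7, the strongest shSCR MYOD peak of these domains. In shSKP2 the pileup there was 113 over 8.47, a ratio of 1.57 (1.16 to 2.14), and the −log10 p of the peak went from 52.9 to 84.2. The background ratio at this peak was 1.49 and the fold ratio 1.1. H3K27ac peaks in shSKP2 lay on both sides of this site, and 1 of them (203172929 to 203173605) ended directly before its first base without overlapping it. The second MYOD site, 3.42 kb from the TSS, was called in shSKP2 alone with 28 fragments (18.6 to 40.5) over 7.91.

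MYBPC2 (ENSG00000086967.10), the fast myosin-binding protein C, lies on chromosome 19 (plus strand, 50432892 to 50466321). MYOD covered 404 bp in shSCR and 738 bp in shSKP2, while H3K27ac covered 881 bp and 821 bp. The MYOD peak over the TSS (50432466 to 50433012 in shSKP2) reached into the UTR of exon 1 and had 19 and 28 fragments (ratio 1.47, 0.794 to 2.79). A second MYOD peak 864 bp before the TSS, inside the H3K27ac peak, was called in shSKP2 alone with 16 fragments (9.15 to 26.0) over 3.72. The H3K27ac pileup at the kept peak was 17 and 20 (ratio 1.18, 0.585 to 2.39). MYBPC1 (ENSG00000196091.15), the slow form, lies on chromosome 12 (plus strand, 101568353 to 101686028). Its domain of 138.0 kb, the longest of the 10, held no peak of either antibody in any list, and the nearest H3K27ac peak in shSKP2 lay 12.2 kb from the gene.

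Across all kept peaks of these genes, the H3K27ac pileup ratio had a median of 1.46 (range 0.875 to 3.21, 10 pairs), and the ratio of local backgrounds had a median of 1.41. The fold ratio had a median of 1.06, while the width ratio had a median of 2.0. Over 19647 kept H3K27ac pairs of the genome the medians were 1.44 for pileup, 1.27 for background, 1.17 for fold and 1.51 for width. For MYOD the medians over the 5 pairs were 1.47, 1.19, 1.11 and 1.23 in the same order, against 1.16, 1.15, 1.04 and 1.09 over 3722 pairs. Pileup was higher in shSKP2 at 9 of 10 H3K27ac and 5 of 5 MYOD pairs of these genes, against 85.7% and 66.6% of all pairs, and H3K27ac background at 9 of 10, against 79.4%. The whole-genome medians moved in the same direction as those of the myosin genes, and whether library depth or background had a part was not tested.

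H3K27ac and MYOD were placed side by side at the 11 MYOD sites. H3K27ac peaks overlapped 3 sites in shSCR and 7 in shSKP2, against 34.0% and 51.7% of all MYOD sites. Within 500 bp there was an H3K27ac peak at 4 sites in shSCR and 9 in shSKP2, against 48.3% and 65.4%. The summit lay between 2 H3K27ac peaks, each within 1 kb, at 1 site in shSCR (MYH7) and at 3 in shSKP2 (MYH8, the downstream MYL1 site and the kept MYBPH site), against 11.7% and 16.1% of all sites. At MYH3 and at MYL6B no H3K27ac peak lay within 1 kb in either arm. The sites with H3K27ac in shSKP2 but not within 500 bp in shSCR were both MYL1 sites, MYL11 and both MYBPH sites.

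**Figure D5:**
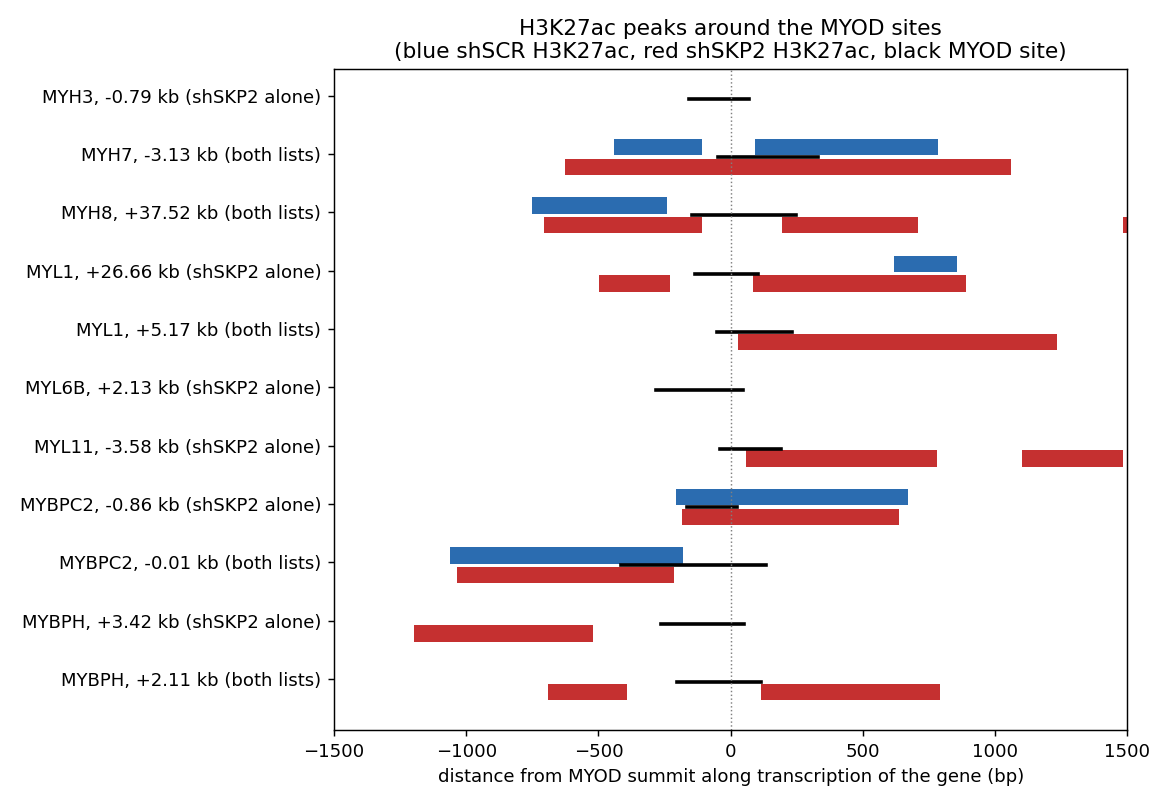
H3K27ac peaks within 1500 bp of the summit of each of the 11 MYOD sites, against distance from the summit in the direction of transcription (bp), blue for shSCR and red for shSKP2, with the MYOD site in black and the label giving its distance from the TSS. At MYH8, the downstream MYL1 site and the kept MYBPH site the red bars lie on both sides of the summit, and no bar is drawn at MYH3 or MYL6B.

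Other genes of the thick filament were counted in the same way. Of 13 other striated-muscle light chains, kinases and binding proteins, 8 had more H3K27ac cover in shSKP2 and 2 had less, and 5 had a MYOD peak in shSCR and 5 in shSKP2, not all of them the same genes (MYLK4 had one in shSCR alone and MYL10 in shSKP2 alone). The largest increases were at MYL5, a regulatory light chain (596 to 3102 bp), and MYOM1, the M-band protein myomesin (0 to 1892 bp). The decreases were at MYL7, the atrial regulatory light chain (293 to 0 bp), and MYBPC3, the cardiac myosin-binding protein C (265 to 0 bp). Of 9 nonmuscle and smooth-muscle myosin genes, 8 had more and 0 had less. MYL6 in this list had the same cover as its neighbour MYL6B (1976 and 2345 bp), because the same peaks lie in both domains. The largest increases there were at MYH9 (964 to 4417 bp) and MYH14 (1926 to 4204 bp), both nonmuscle heavy chains. Among troponins and tropomyosins 9 of 12 had more and 1 had less, and among muscle actins, titin and Z-disc genes 11 of 13 had more and 1 had less. All these counts stand beside 66.8% of protein-coding domains with more, and no difference between the lists was tested.

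Promoter sequences of RefSeq (GRCh38.p14, 300 bases around each start) were available for 6 of the 10 genes, MYH8, MYL1, MYL6B, MYL11, MYBPC1 and MYBPH. CAGCTG occurred in 1 promoter of MYL11, in that of MYBPC1 and in that of MYBPH, against 17.9% of 35116 promoters. It was absent from the other MYL11 promoter, both MYL1 promoters and those of MYH8 and MYL6B. CAGGTG or CACCTG occurred only in both MYL11 promoters (20.6% of all promoters). The MEF2 motif occurred only in that of MYH8 and in 1 of MYL1 (2.99%). No MYOD peak of either arm had its summit within 500 bp of the canonical TSS of any of the 10 genes except MYBPC2.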

How the data were processed

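MYOD and H3K27ac ChIP-seq peak lists of RD cells were analysed, 4 libraries in 4 groups of 1, grouped by sample title. BWA (version 0.7.17) and MACS3 are the aligner and caller in the processing notes of the submitters, with GRCh38, hg38 and dm3 as builds. Per the methods, reads were aligned to GRCh38 and peaks called in each library with MACS3 against input, then cleared of an exclusion list. The sources used here leave unclear whether peak calling used spike-in scaling, so covered lengths and pileups are not absolute occupancy. The sources differ on read type.

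The authors deposited for each peak a fold over background (a ratio), a −log10 p and −log10 q, and a score equal to the −log10 p times 10. The methods state a threshold of 5 in −log10 p, which 2.41% (lowest list) to 4.13% (highest list) of deposited peaks did not reach, and the lists were used whole. Pileup x and background b were recovered from fold = (x + 1)/(b + 1) and the Poisson p, with a whole x for 100.0% of peaks within 0.001 in −log10 p. The recovery and the overlap steps were checked on simulated data.

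Domains were gene bodies (GENCODE 44) plus 10 kb, for 20007 protein-coding genes of chromosomes 1 to 22, X and Y. An overlap of 1 bp counted, peaks of both arms that overlapped were called kept, and overlapping MYOD peaks were merged into sites. Pileups of kept peaks were compared at the summit of each arm, so the compared positions can differ. Covered bp were clipped at domain edges. Motifs were searched on both strands within 100 bp of the summit in hg38. Intervals are 95% and cover counting error only: exact Poisson for pileups, exact Clopper-Pearson for their ratios. Single libraries allow no test of one arm against the other, and p-values were not computed. All 10 genes are named. The 3 lists of other myosin-related genes are given with their 2 largest increases and decreases, the troponin and actin lists by counts alone, and the 3 most alike genes for the 8 genes with peaks of both antibodies in shSKP2. Genes and lists were chosen with earlier results of these data known. Python 3.11.15, numpy 2.4.6 and scipy 1.17.1 were used. Alternatives were p thresholds, lists of equal length, flanks of 0 and 50 kb, assignment to the nearest canonical TSS and other overlap rules.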

Additional observations from a re-analysis of the deposited data

How the results depend on the processing

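No paired analysis was possible because each group is 1 library and no value comes from a test. The number of genes with more H3K27ac cover in shSKP2 (7), with at least 2-fold cover (5) and the ratio of summed cover (2.31) stayed within 1.5 times under p thresholds, equal-length lists, 50 kb flanks and nearest-TSS assignment. On the gene body alone they were 4 and 3 genes, with a summed ratio of 2.66. No share over all domains or sites is given at these settings, so the counts have no background beside them. MYOD sites in the shSKP2 list alone numbered 6 of 11. They were 2 of 6 among peaks of a −log10 p of 10 or more, 3 of 6 on the gene body alone and 10 of 19 with 50 kb flanks. The 2 included MYL1 intron 1, a site of both full lists whose shSCR peak (−log10 p of 7.5) fell out. Sites overlapped by H3K27ac numbered 3 in shSCR and 7 in shSKP2. With only peaks of a −log10 p of 10 or more they were 1 and 5 of 6 sites. On the gene body alone they were 1 and 3 of 6, and with 50 kb flanks 5 and 13 of 19. The difference in cover at MYBPC2 (−60 bp) turned to 821 bp at that threshold and to 2398 bp with 50 kb flanks, and that at MYL4 (−75 bp) turned to 282 bp with 50 kb flanks. The wider flanks hold further peaks and genes, and the stricter threshold leaves fewer peaks. With 1 library per arm, the spread between replicates is unknown, and a peak called in 1 list alone may lie just under the threshold in the other.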

Other observations

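For the 8 myosin genes with peaks of both antibodies in shSKP2 (not MYL4 or MYBPC1), genes with the most similar cover were looked up by distance over log2 of covered bp plus 100 in the 4 libraries, among genes with domains within 1.5 times the length. Nearest to MYBPH was its neighbour CHI3L1, at a distance of 0.0, because the same peaks lie in both domains, followed by MAP1LC3A (0.48) and SOX18 (0.5). Nearest to MYL1 were CGN (0.26), ENSG00000264668 (0.47) and DERL2 (0.51). Nearest to MYL11 were DENND4B (0.09), PCIF1 (0.13) and NME1-NME2 (0.13). Nearest to MYL6B were NDUFA7 and the overlapping ENSG00000167774 (0.2 each) and TUBB3 (0.23). Nearest to MYH3 were SULT2B1 (0.02), APBB1 (0.05) and MMP20 (0.08), nearest to MYH7 were TMEM97 (0.22), DERL1 (0.24) and ARHGEF39 (0.25), and nearest to MYH8 were ENSG00000268361 (0.22), JUP (0.3) and PNPLA3 (0.34). Nearest to MYBPC2 were ATG16L2 (0.41), C4A (0.43) and AHCY (0.47). With values in 4 libraries, such likeness describes the cover and no more.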
